A study of Equus caballus with 19 samples.

Results

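The genes described here are 10 members of the insulin-like growth factor (IGF) axis that equine tenocytes express: the ligands IGF1 and IGF2, the receptors IGF1R and GHR, the binding proteins IGFBP2 to IGFBP6, and the related IGFBP7. They were taken by gene name from the count tables of the series, 10 of 29196 gene names in each table, and every one passed the filter on low values in both tables. They were proposed with the fold changes of these same libraries known, so the tests given for them describe the members and are not independent evidence that the axis responds. The libraries were made from wild-type tenocytes of the superficial digital flexor tendon, the tendon most often injured in racing horses, isolated from adult Thoroughbred donors and kept as 8 separate lines. The cells were embedded in bovine type 1 collagen and harvested at day 14 as untreated control, with interleukin-1 beta (IL-1β, 1 nM), or with IL-1β (1 nM) and the interleukin-1 receptor antagonist IL1Ra (100 ng/ml). The first batch held lines 1 to 5 as control and IL-1β, 10 libraries in all. The second batch held lines 6 to 8 in all 3 conditions, 9 libraries, and no library received IL1Ra alone.

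IGF1 and IGF2 are secreted growth factors that act through IGF1R, a tyrosine kinase receptor, to promote growth, survival and matrix synthesis, and in tendon IGF1 is known as a stimulus of tenocyte proliferation and collagen production. GHR is the receptor for growth hormone, which drives IGF1 production through JAK2 and STAT5 and is restrained by the suppressors SOCS2 and CISH. The IGF binding proteins hold the ligands outside the cell, where they can block or prolong signalling and are themselves cut by proteases such as PAPPA. IGFBP7 is grouped with them by sequence but binds IGFs only weakly.

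Values are normalised read counts, which the authors scaled within each batch, so levels were not compared between batches, and without transcript lengths they were not compared between genes. Differences are log2-fold changes from limma with their standard error (SE), on log2(normalised count + 1). A gene was called differentially expressed (DE) at an adjusted p under 0.05 and a log2-fold change of at least 1 in either direction. Library totals of normalised counts ran from 43393903 to 49197980 in the first batch and from 24964149 to 34602014 in the second. Of 12 tenocyte markers 11 were in the tables, and TNMD, a mature tendon marker, stayed under 10 normalised counts in every library. The summed tenocyte markers ran from 1152730 to 1912100 normalised counts in the first-batch control libraries and from 510393 to 996530 with IL-1β. The leukocyte markers PTPRC, CD3E, CD79A and CSF1R stayed under 10 normalised counts in every library, while the sum of the 8 leukocyte markers ran from 111 to 2134 in control and from 315 to 3722 with IL-1β in the first batch. The summed skeletal muscle markers, mostly ACTA1 and DES with MYH1 and MYH2 at 0, ran from 1079 to 2216 in control and from 31.5 to 191 with IL-1β in the first batch. The summed adipocyte markers ran from 79.8 to 2739 in control and from 295 to 2310 with IL-1β in the first batch. Of these markers, PLIN1 and LEP stayed under 10 in every library. The part of these marker differences in the results was not tested. In bulk libraries fewer cells of a type and less RNA per cell cannot be told apart. IL6, a direct IL-1 response gene, was at most 865 normalised counts in the control libraries and at least 57342 in the IL-1β libraries. With IL1Ra added it was 13776, 201720 and 119246 in lines 6, 7 and 8, far above control in each and in line 7 also above the IL-1β library. In the second batch line 6 stood somewhat apart, with the lowest mean correlation with the other lines in each condition (0.851 to 0.895). Second-batch changes of members that move by over 1.5 times in fold without line 6 are therefore given both ways.

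IL-1β lowered GHR and the binding proteins IGFBP2 and IGFBP4 in the first batch and raised IGFBP5. Thus 4 of the 10 members were DE (1 higher, 3 lower), beside 12.8% of all 14719 genes tested, of which 4.91% were higher and 7.90% lower. Groups did not overlap for 3 members, IGF1R, GHR and IGFBP2, all lower, against 19.5% of all genes and 10.2% lower. At an unadjusted p under 0.05 there were 6 members, beside 39.5% of all genes. The median log2-fold change was -0.37 over the members and -0.0034 over all genes. The plot of first-batch values shows each line.

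**Figure D1:**
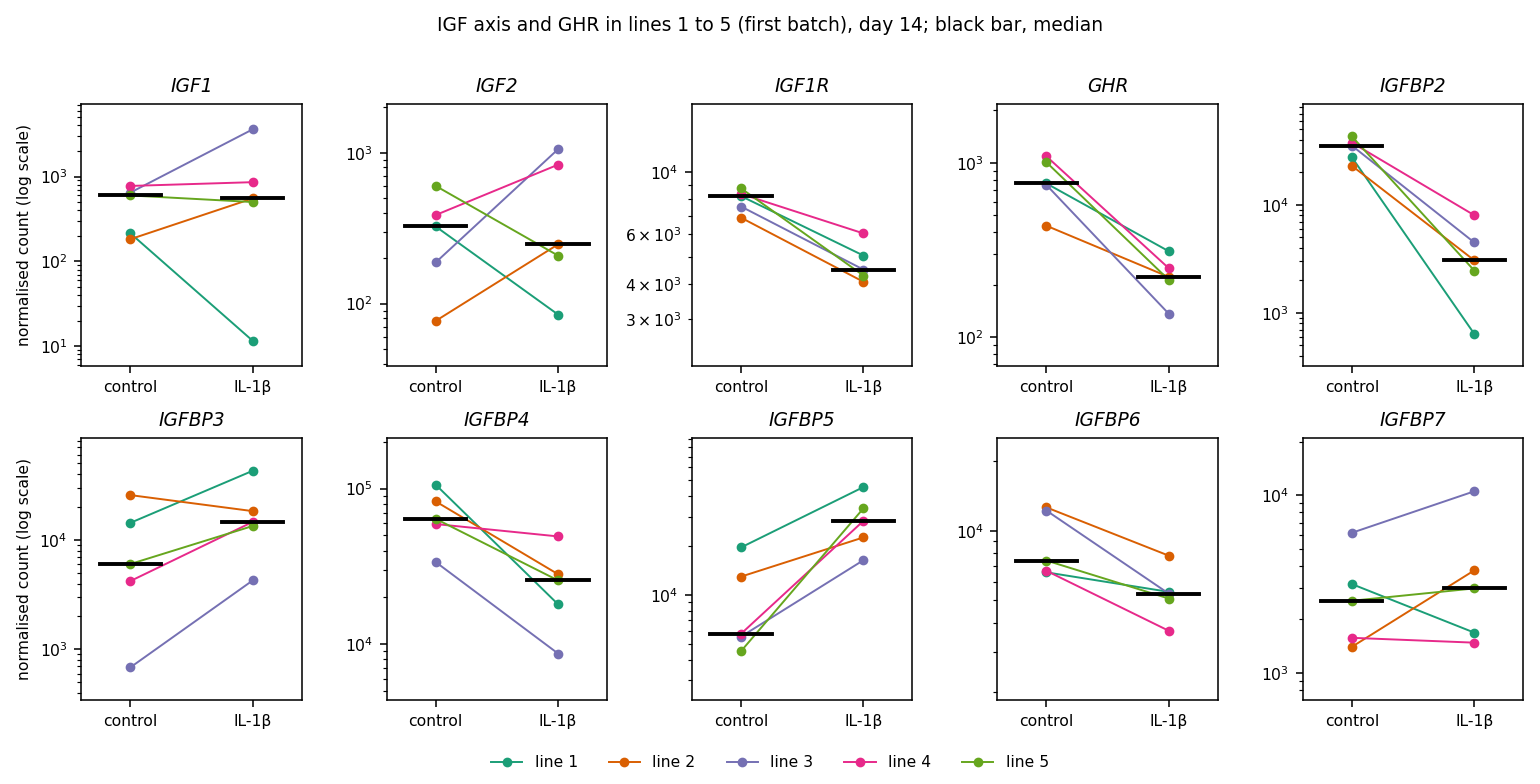
Normalised counts (log scale) of the 10 members in control and IL-1β libraries of the first batch, 1 panel per gene, with each line joined by a coloured line and the median as a black bar. GHR, IGFBP2 and IGF1R are lower with IL-1β in all 5 lines without overlap, IGFBP5 is higher in all 5, and the lines of IGF1 and IGF2 cross.

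Of the receptors, GHR was the member that was DE in the first batch. Its normalised counts in lines 1 to 5 were 762, 436, 747, 1091 and 1008 in control and 311, 222, 136, 249 and 213 with IL-1β. Every IL-1β library was below the lowest control library. The means were 809 ± 257 and 226 ± 63.2 (SD, n = 5), a 3.52-fold lower level (log2-fold change -1.81, SE 0.28, limma adjusted p = 0.00126). Line 3 lost the most GHR and line 2, which had the lowest control level, the least (within-line log2 ratios from -2.45 to -0.97).

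IGF1R, the signalling receptor for both ligands, was among the members that varied least between lines. It read 8209, 6878, 7538, 8360 and 8749 in control and 5041, 4066, 4494, 6045 and 4280 with IL-1β. Again no IL-1β library reached the lowest control library. The log2-fold change was -0.74 (SE 0.12, limma adjusted p = 0.00143), a 1.67-fold lower level, so IGF1R passed the adjusted p and not the fold threshold. Between the 5 control lines its log2 values had an SD of 0.138, where the median gene had 0.283.

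Among the binding proteins, IGFBP2 had the largest difference of the members. It was 27631, 23033, 35358, 37704 and 43056 in control and 641, 3068, 4489, 8019 and 2467 with IL-1β. The control lines lay within 1.87-fold of each other, and the IL-1β lines spread over 12.5-fold, from line 1 at the bottom to line 4 at the top. The mean level was 33356 ± 8006 in control and 3737 ± 2763 with IL-1β (SD, n = 5). The fitted change was 11.6-fold lower (log2-fold change -3.53, SE 0.55, limma adjusted p = 0.00128).

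IGFBP4, which in most settings inhibits IGF action and is the classic substrate of PAPPA, was lower in all 5 lines, though by very different amounts. Its control counts were 106095, 82816, 33759, 59213 and 63983, and its IL-1β counts 18038, 28169, 8705, 49300 and 25698. The groups overlapped because line 4 kept most of its IGFBP4 and line 3 had the lowest control level. The log2-fold change was -1.53 (SE 0.44, limma adjusted p = 0.0256). The call was lost without line 1 (adjusted p = 0.104), line 2 (0.0758) or line 5 (0.0839). With the line as a block IGFBP4 was DE whichever line was left out (limma adjusted p from 0.00384 to 0.0281).

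IGFBP5, a matrix-bound binding protein that can enhance as well as block IGF action, went the other way. Control libraries held 19469, 12908, 5545, 5769.9 and 4519 and IL-1β libraries 45555, 22423, 16271, 28312 and 33782. It was higher in all 5 lines, with an overlap that came from line 1, whose control level exceeded the IL-1β level of line 3. The log2-fold change was 1.75 (SE 0.42, limma adjusted p = 0.0113), a 3.37-fold higher level. Without line 4 or line 5 the adjusted p was 0.0540 or 0.0651, and with the line as a block IGFBP5 was DE whichever line was left out (limma adjusted p from 0.00531 to 0.0182).

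IGFBP2 and IGFBP5 are neighbouring protein-coding genes in the RefSeq annotation of the equine TB-T2T assembly, and in the first batch they moved in opposite directions. The log2 ratio of the IGFBP2 count to the IGFBP5 count was above 0 in all 5 control libraries of that batch, from 0.51 to 3.25. With IL-1β it was below 0 in all 5, from -6.15 to -1.82. In lines 6, 7 and 8 it was 4.63, -1.08 and -3.40 in control and -0.51, -4.73 and -3.82 with IL-1β. The shift was small in line 8, where both genes were higher with IL-1β. As a ratio of counts without lengths, its position relative to 0 has no meaning of its own, and only its shift between conditions is described.

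IGFBP3, the main carrier of circulating IGFs, differed more between lines than between conditions. Its counts were 14324, 25705, 685, 4209 and 6027 in control and 42871, 18344, 4269, 14625 and 13421 with IL-1β. It was higher with IL-1β in lines 1, 3, 4 and 5 and lower in line 2, and control lines spanned 37.6-fold. Without the line as a block it was not DE (log2-fold change 1.34, SE 0.91, limma adjusted p = 0.304), and with the line as a block it was DE (adjusted p = 0.0354). That call was lost without line 1, 3, 4 or 5 (limma adjusted p from 0.0829 to 0.101). The block, which compares each line with its own control, brought the members called DE to 5, beside 16.2% of all genes.

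IGFBP6, which prefers IGF2 as its ligand, ran from 6604 to 12613 in control and from 3688 to 7796 with IL-1β. It was lower in all 5 lines, with a log2-fold change of -0.72 (SE 0.24, limma adjusted p = 0.0489), below the fold threshold. Both IGFBP6 and IGF1R therefore join the 4 DE members only if the fold threshold is dropped. A shared direction in all lines was found for 6 members, against 49.8% of all genes.

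Neither ligand had a shared direction. IGF1 was 215, 182, 646, 775 and 598 in control and 11.6, 552, 3602, 858 and 501 with IL-1β. Lines 1 and 5 were lower and lines 2, 3 and 4 higher, and the within-line log2 ratios ran from -4.10 in line 1 to 2.48 in line 3. The fitted log2-fold change was -0.03 (SE 1.237, limma adjusted p = 0.989), and its 95% interval from -2.76 to 2.71 leaves room for large changes in either direction.

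IGF2, the fetal-type ligand that IGF2R removes from the cell surface, was 325, 76.8, 187, 387 and 603 in control and 84.6, 247, 1056, 834 and 208 with IL-1β. The lines that were lower and higher were the same as for IGF1. The log2-fold change was 0.36 (SE 0.74, limma adjusted p = 0.753). IGFBP7 had a similar lack of a shared direction, higher in 3 lines and lower in 2, with counts of 1402 to 6145 in control and 1481 to 10522 with IL-1β (log2-fold change 0.29, SE 0.55, limma adjusted p = 0.737).

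**Figure D2:**
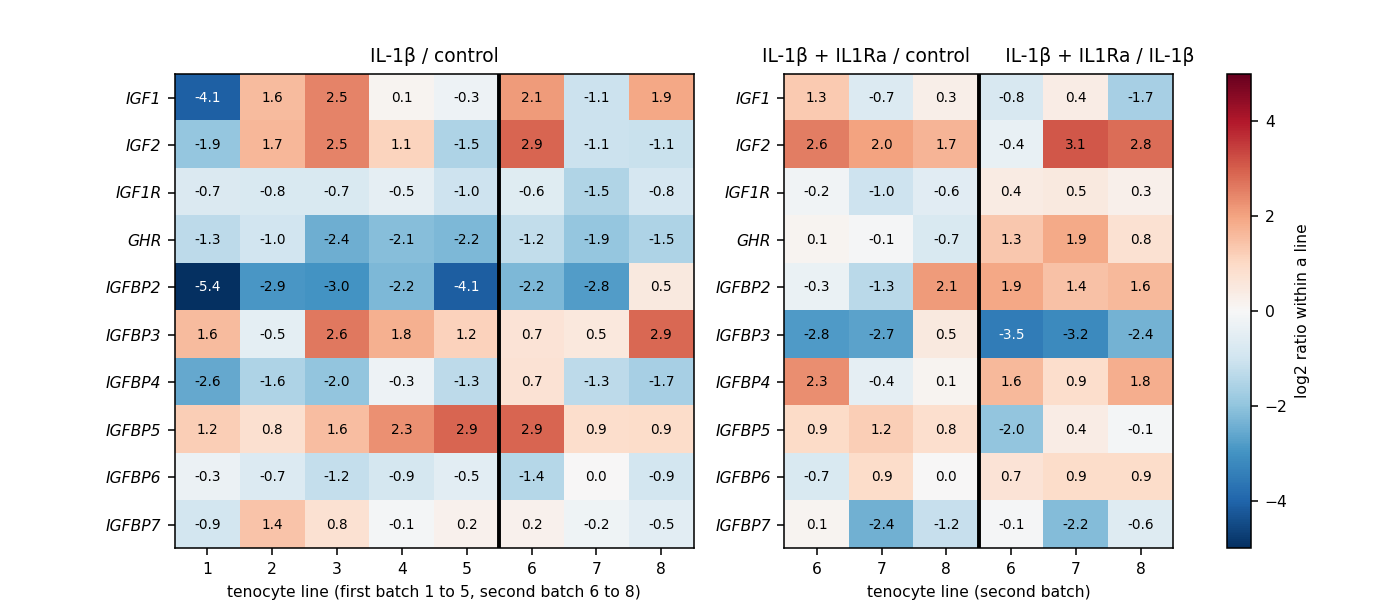
Log2 ratio within each line, printed and coloured (blue below 0, red above 0), for the members in rows and the lines in columns: IL-1β to control in lines 1 to 8 on the left, and IL-1β + IL1Ra to control and to IL-1β in lines 6 to 8 on the right. GHR and IGF1R are below 0 and IGFBP5 is above 0 in all 8 lines with IL-1β, while IGF1, IGF2 and IGFBP7 have lines on both sides of 0.

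The second batch put the same comparison to 3 other lines. No member was DE without the line as a block (limma, 0 of 10, beside 0.341% of the 16705 genes tested). At an unadjusted p under 0.05 there were 2 members, GHR and IGF1R, beside 11.4% of all genes, and the fit with the line as a block called 1, GHR, beside 5.18% of all genes. The same 2 members had groups that did not overlap, both lower, beside 16.4% of all genes and 7.61% lower. The median log2-fold change was -0.47 over the members and -0.0084 over all genes.

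GHR read 417, 548 and 452 in control and 177, 142 and 156 with IL-1β in lines 6, 7 and 8. The 3 lines lay close together in both conditions and were far apart between them. The log2-fold change was -1.57 (SE 0.28, limma adjusted p = 0.0700), and with the line as a block GHR was DE (adjusted p = 0.0206). With the block, the limma adjusted p was 0.128 without line 7 and 0.191 without line 8. For IGF1R, control libraries held 4225, 4458 and 4519 and IL-1β libraries 2802, 1553 and 2549.7. It was lower in 3 of 3 lines (log2-fold change -0.98, SE 0.27, limma adjusted p = 0.205, with the line as a block 0.0390 at the same fold, just short of the threshold of 1).

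IGFBP5 was higher with IL-1β in all 3 lines here too. Its counts were 850, 12603 and 14682 in control and 6350, 22977 and 28083 with IL-1β. Line 6 began far below the others and had the largest ratio (2.90 on the log2 scale). The fit gave 1.57 (SE 1.41, limma adjusted p = 0.793), and with the line as a block the SE was 0.45 (limma adjusted p = 0.0912). Without line 6 the log2-fold change was 0.90. IGFBP3 was likewise higher in 3 of 3 lines, from 542, 27836 and 6226 to 866, 39759 and 45312 (log2-fold change 1.35, SE 2.28, limma adjusted p = 0.909). With the line as a block its SE was 0.60 (limma adjusted p = 0.239). A shared direction in every line was found for 4 members, IGF1R, GHR, IGFBP3 and IGFBP5, against 38.0% of all genes.

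Of the binding proteins that fell in the first batch, neither had a shared direction in the second. IGFBP2 was 21109, 5961 and 1395 in control and 4472, 867 and 1982 with IL-1β. It was lower in lines 6 and 7 and higher in line 8, whose control level was the lowest (log2-fold change -1.50, SE 1.09, limma adjusted p = 0.703). IGFBP4 was 5079, 64611 and 85474 in control and 8334, 26178 and 26743 with IL-1β. Lines 7 and 8 were lower, and line 6, with the lowest control level of IGFBP4, was higher (log2-fold change -0.76, SE 1.07, and -1.49 without line 6).

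The remaining members were spread widely between lines. IGF1 was 1021, 59.7 and 127 in control and 4428, 27.6 and 492 with IL-1β, so lines 6 and 8 were higher and line 7 lower (log2-fold change 0.99, SE 2.10, and 0.43 without line 6). IGF2 ran from 51.2 to 382 in control and from 58.5 to 394 with IL-1β, and was higher in line 6 only (log2-fold change 0.23, SE 0.91, and -1.11 without line 6). IGFBP6 (log2-fold change -0.77, SE 0.48) and IGFBP7 (-0.18, SE 0.77) were each lower in 2 of 3 lines.

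The within-line responses of the batches were then set against each other. A two-sided exact permutation test on the log2 ratios of 5 against 3 lines gave an adjusted p = 1 for all 10 members. A single member could not have passed after adjustment over 10 members, so this outcome says nothing of whether the batches respond alike. The smallest unadjusted p was 0.107, for IGFBP2, whose mean ratio was -3.53 ± 1.26 (SD, n = 5) in the first batch and -1.50 ± 1.76 (SD, n = 3) in the second. With 56 arrangements the exact permutation test could not go below p = 0.0357. The batches hold different lines, so batch and line cannot be told apart.

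IGF1R had the smallest and IGFBP3 the largest spread between control lines in each batch. In the first batch the SD of log2 values was lowest for IGF1R (0.138) and IGFBP2 (0.363) and highest for IGFBP3 (2.00). In the second it was lowest for IGF1R (0.0513) and GHR (0.203) and again highest for IGFBP3 (2.87), beside a median of 0.366 over all genes. IGFBP2 had an SD of 1.96 in the second batch.

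**Figure D3:**
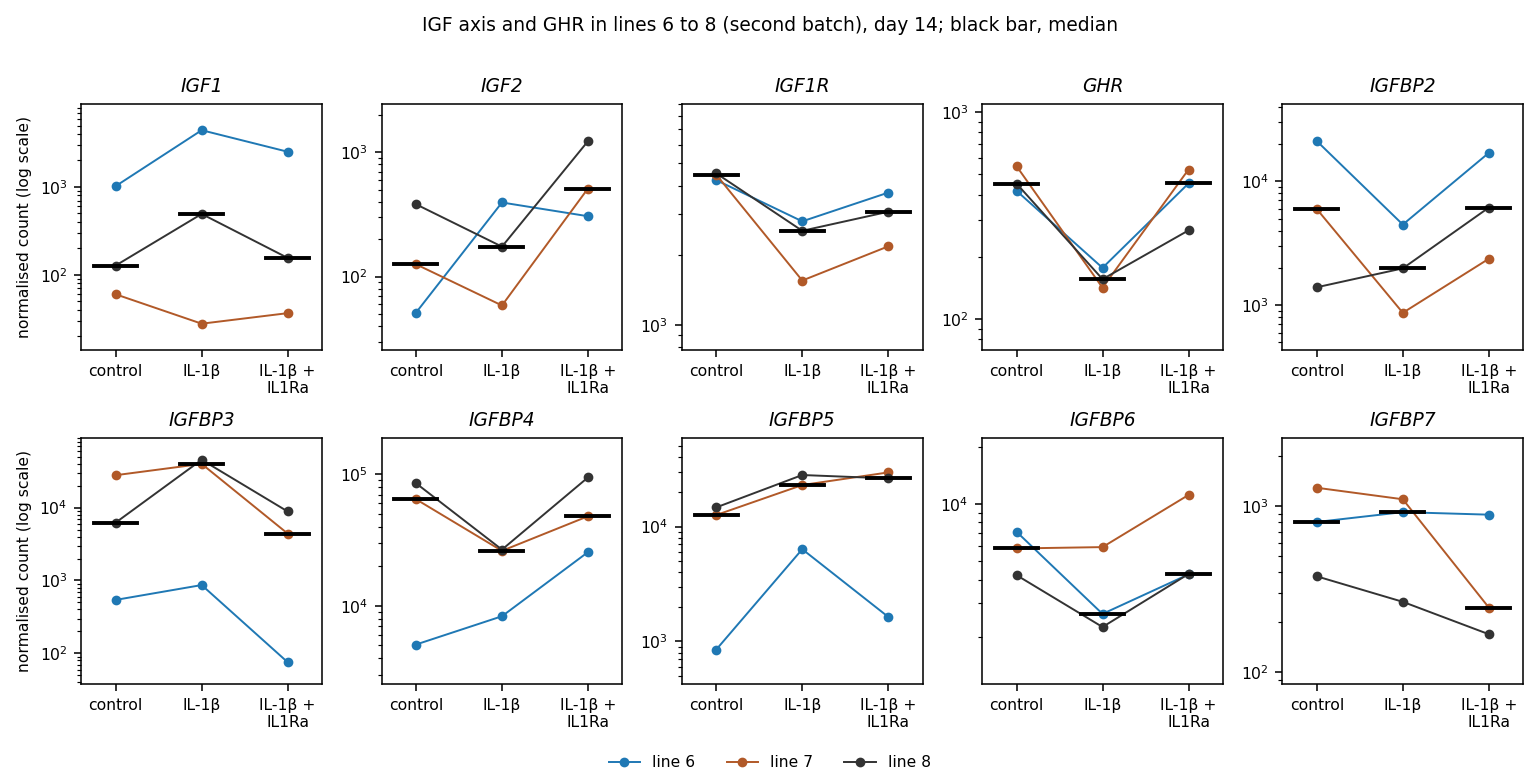
Normalised counts (log scale) of the 10 members in control, IL-1β and IL-1β + IL1Ra libraries of the second batch, 1 panel per gene, with lines 6, 7 and 8 joined by coloured lines and the median as a black bar. GHR falls to 142 to 177 with IL-1β and lies at 269 to 528 with IL1Ra added, and IGFBP3 is lowest with IL1Ra added in lines 6 and 7.

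Across control, IL-1β and IL-1β + IL1Ra, the summed second-batch markers of skeletal muscle ran from 353 to 1696, from 5.22 to 187 and from 82.2 to 211. The leukocyte sums ran from 244.5 to 1371, from 677 to 3139 and from 733 to 2066, and the tenocyte sums from 305821 to 958364, from 384135 to 597576 and from 177457 to 934468. The adipocyte sums ran from 51.2 to 6070, from 127 to 1666 and from 70.6 to 1727. The part of these marker differences in the second-batch results was not tested.

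Adding IL1Ra to IL-1β addresses whether blocking the receptor returns the axis toward control. Against IL-1β alone no member was DE in limma, with or without the line as a block, and no gene of the table was DE without it (0%, and 0.00599% with it). Without the block 1 member, GHR, had an unadjusted p under 0.05, beside 2.78% of all genes. GHR was also the member whose groups did not overlap, beside 6.47% of all genes and 3.12% higher. A shared direction in all 3 lines was found for 7 members, against 32.4% of all genes. Of these, 5 were higher with IL1Ra in every line (IGF1R, GHR, IGFBP2, IGFBP4 and IGFBP6, beside 15.6% of all genes) and 2 were lower (IGFBP3 and IGFBP7, beside 16.8%).

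GHR reached 453, 528 and 269 with IL1Ra in lines 6, 7 and 8, each above its own IL-1β library. The log2-fold change against IL-1β was 1.34 (SE 0.28, limma unadjusted p = 0.00135, adjusted p = 0.857, with the line as a block 0.204). Line 6 was slightly above its control level, line 7 slightly below, and line 8 remained lower. Against control the log2-fold change was -0.23 with a 95% interval from -0.88 to 0.42, which includes 0 and also a lower level of up to 0.88 on the log2 scale.

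IGF1R reached 3729.95, 2184 and 3082 with IL1Ra. It lay above IL-1β and below control in all 3 lines (log2-fold change 0.39 against IL-1β, SE 0.27, and -0.59 against control, SE 0.27, limma adjusted p = 0.910). It was the only member whose IL1Ra and control groups did not overlap, beside 11.8% of all genes and 5.96% lower.

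IGFBP2 and IGFBP4 were higher with IL1Ra than with IL-1β alone in all 3 lines. IGFBP2 reached 16956, 2368 and 6132 (log2-fold change 1.67 against IL-1β, SE 1.09), below its control in lines 6 and 7 and above it in line 8. IGFBP4 reached 25591, 47937 and 94580 (1.44, SE 1.07), above control in lines 6 and 8. IGFBP6 was also higher than with IL-1β alone (log2-fold change 0.84, SE 0.48, higher in 3 of 3 lines). With the line as a block, the SE was 0.63 for IGFBP2, 0.54 for IGFBP4 and 0.31 for IGFBP6. The limma adjusted p with the block was 0.524, 0.521 and 0.502.

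IGFBP3 went below its IL-1β level in all 3 lines by similar amounts on the log2 scale, from -3.50 to -2.36. Its counts with IL1Ra were 75.7, 4400 and 8850, which in lines 6 and 7 was also below control (log2-fold change -1.66, SE 2.28, and -1.08 without line 6). The fitted log2-fold change against IL-1β was -3.01 with an SE of 2.28 without the line as a block, and an adjusted p of 0.204 in limma with it. IGFBP5 had no shared direction against IL-1β, with within-line log2 ratios of -1.96, 0.36 and -0.098 in lines 6, 7 and 8. It stood at 1637, 29586 and 26245, and was above control in all 3 lines (log2-fold change 1.00, SE 1.41) and below IL-1β in lines 6 and 8 only.

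IGF2 was the ligand with the largest difference between IL1Ra and control. It read 51.2, 126 and 382 in control, 394, 58.5 and 174 with IL-1β and 306, 511 and 1227 with IL1Ra added. It was higher than control in all 3 lines (log2-fold change 2.08, SE 0.91, limma unadjusted p = 0.0504, adjusted p = 0.880). Without line 6 and with the line as a block, IGF2 was DE against control (1.85, limma adjusted p = 0.0238) and against IL-1β (2.96, limma adjusted p = 0.0157), a fit that rests on 2 lines. IGF1 with IL1Ra was 2516, 36.4 and 155, between control and IL-1β in all 3 lines. IGFBP7 was 889, 245 and 169, lower than IL-1β in all 3 lines (-0.95, SE 0.77) by a small margin in line 6. Against control its log2-fold change was -1.13 (SE 0.77), and -1.77 without line 6.

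Against control, then, no member was DE with IL1Ra added (limma, 0 of 10 with and without the line as a block, beside 0.0120% of all genes without it and 0.251% with it). Without the block none had an unadjusted p under 0.05, beside 5.67% of all genes. A shared direction in all lines was seen for 3 members, IGF2, IGF1R and IGFBP5, against 39.1% of all genes. The median log2-fold change over members was 0.12 against control and 0.62 against IL-1β, beside 0.0095 and 0.0088 over all genes.

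The change left with IL1Ra was expressed per line as the IL1Ra ratio to control in percent of the IL-1β ratio, for the members whose IL-1β ratio was at least 1 on the log2 scale in either direction. Its median was 42.2% over 6 members in line 6, 40.5% over 6 in line 7 and 14.7% over 5 in line 8. For GHR it was -9.64% in line 6, 2.76% in line 7 and 49.0% in line 8. For IGF1 it was 61.5%, 64.4% and 14.7%. For IGF2 it was 87.5% in line 6, and in lines 7 and 8 it was -185% and -149%, since IGF2 there was lower with IL-1β and higher with IL1Ra than in control. The control and IL-1β libraries enter both ratios of a line, and members entered by the size of the IL-1β ratio, so these percentages are descriptions and were not tested. A percentage below 0 is a level on the far side of control, and it lowers the median without being a return. The cut-off left out members that moved toward control, such as IGF1R in line 6 (log2 ratio -0.59 to -0.18). It also left out members that moved away, such as IGFBP3 in lines 6 and 7 (0.68 to -2.82 and 0.51 to -2.66).

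**Figure D4:**
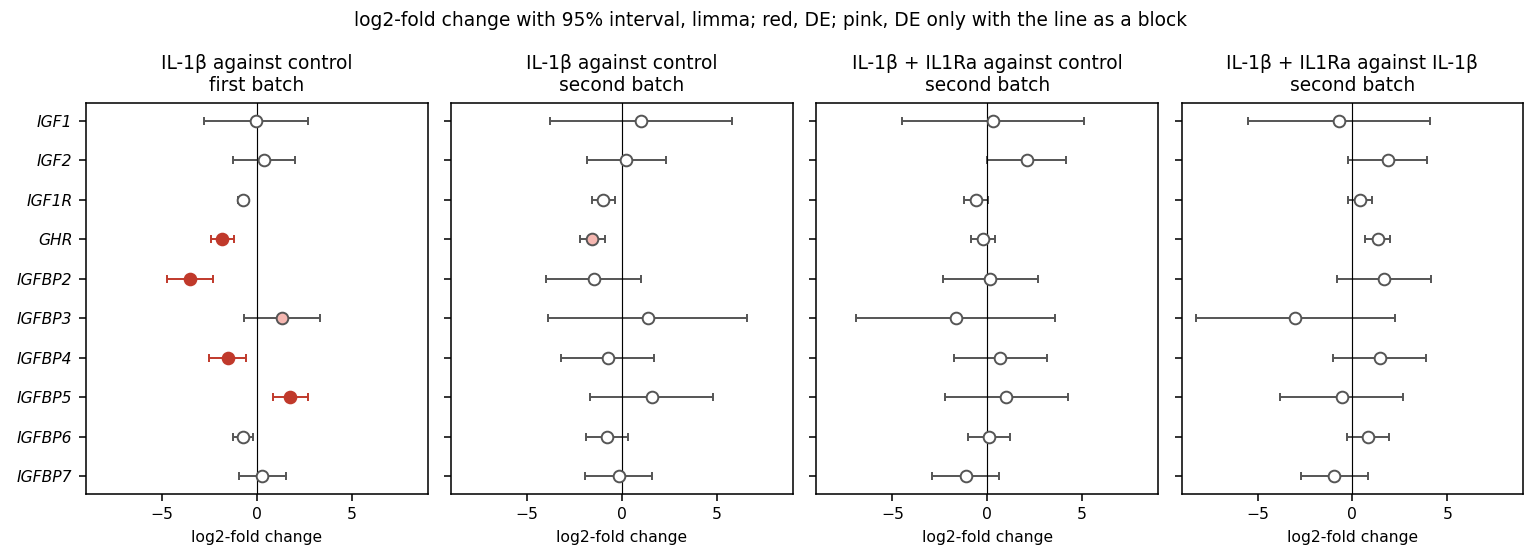
Fitted log2-fold change of each member in the 4 comparisons with its 95% interval from limma without the line as a block, red where DE and pink where DE only with the line as a block. GHR, IGFBP2, IGFBP4 and IGFBP5 are red in the first batch, and the second-batch intervals of IGF1, IGFBP3 and IGFBP5 are the widest there.

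The rest of the pathway was followed in 58 further genes, of which 49 passed the filter in both batches. IGFBP1, IGFBPL1, PAPPA2 and ADAM28 were listed at 0 in every library, IGFALS and IRS4 did not exceed 6.16 and 4.28 normalised counts, and PIK3R3 and STAT5B had no entry under those names. In the first batch 4 of the 49 were DE, all lower, and 6 with the line as a block, against the shares of 12.8% and 16.2% given for all genes. The median log2-fold change was 0.03 over these genes.

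STC2, a secreted inhibitor of the protease PAPPA, had the largest difference of the DE genes. It read 4976, 3859, 5721, 11016 and 10978 in control and 348, 1072, 549, 1219 and 1168 with IL-1β. The groups were far apart, with a log2-fold change of -3.09 (SE 0.41, limma adjusted p = 5.76e-04). PAPPA itself was higher in 3 lines and lower in 2 (log2-fold change 0.22, SE 1.09). HTRA3, a serine protease, was lower in all 5 lines and was DE with the line as a block (log2-fold change -1.005, limma adjusted p = 0.104 without the block and 0.00159 with it).

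Downstream of GHR, the feedback inhibitors SOCS2 and CISH were DE and lower. SOCS2 was 1956, 2604, 4003, 3250.1 and 4262 in control and 309.9, 1052, 362, 974 and 821 with IL-1β, without overlap (log2-fold change -2.31, SE 0.38, limma adjusted p = 0.00166). CISH, at 44.1 to 165 in control and 23.7 to 48.8 with IL-1β, fell by 1.64 on the log2 scale (SE 0.41, limma adjusted p = 0.0136). SOCS1 was called with the line as a block only (log2-fold change -1.45, limma adjusted p = 0.0558 and 0.0268). No gene of this group of 8 was DE and higher.

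Downstream of IGF1R, 1 of 28 genes was DE. EIF4EBP1, a translation repressor that mTOR inactivates, was 5321 to 9986 in control and 1723 to 3949 with IL-1β, without overlap (log2-fold change -1.18, SE 0.27, limma adjusted p = 0.00860). In lines 6, 7 and 8 it was 8002, 2939 and 1229.6 in control and 1237, 3175 and 1758 with IL-1β. EIF4EBP1 was thus lower in line 6 and higher in lines 7 and 8 (log2-fold change -0.69, SE 0.67). Its within-line log2 ratios ran from -2.69 in line 6 to 0.52 in line 8, so the negative fitted change rests on line 6. The kinase MTOR and the substrates IRS1 and IRS2 were not DE, and neither were the receptors INSR and IGF2R. In the first batch MTOR, IRS1 and IRS2 were higher in 5 of 5 lines (log2-fold change 0.29, 0.43 and 0.48). A shared direction held for 49.8% of all genes. IRS1 passed the adjusted p and not the fold threshold (limma adjusted p = 0.0267). Of the 28 genes downstream of IGF1R, 16 had a positive and 12 a negative log2-fold change. Of the 4 receptors and carriers and the 2 IGF2 mRNA binding proteins tested, none was DE with or without the line as a block.

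In the second batch no gene of the list was DE in limma without the line as a block. At an unadjusted p under 0.05 there were 5 of 49, STC2, HTRA3, SOCS1, SOCS2 and IRS1, beside 11.4% of all genes. With the line as a block 1 of 49, STC2, was DE (log2-fold change -2.29, limma adjusted p = 0.0117), beside 5.18% of all genes. Its counts in lines 6, 7 and 8 were 6004, 1933 and 962 in control, 679, 405 and 343 with IL-1β and 2504, 811 and 908 with IL1Ra added. With IL1Ra, STC2 lay between control and IL-1β in all 3 lines, and its IL1Ra and IL-1β groups did not overlap.

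SOCS2 in these lines was 1429, 817 and 649 in control, 328, 516 and 597 with IL-1β and 990.1, 1019 and 1327 with IL1Ra added. Its IL1Ra group was wholly above its IL-1β group (log2-fold change 1.242, SE 0.34, limma unadjusted p = 0.00583, adjusted p = 1.00). STC2 and SOCS2 were the pathway genes without overlap in that comparison, 2 of 49, beside 6.47% of all genes. CISH stayed at 24.1 to 46.0 with IL1Ra, beside 22.4 to 44.4 with IL-1β and 37.5 to 137 in control. Against control no pathway gene was DE with IL1Ra added. Groups did not overlap for 5 of 49 (IRS1 and FOXO4 higher, HTRA3, RHEB and GSK3B lower), beside 11.8% of all genes. IRS1 and JAK2 were further above control than with IL-1β alone (log2-fold changes 0.76 and 0.94, against 0.56 and 0.20). HTRA3 was closer to control (-0.91, against -1.31).

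**Figure D5:**
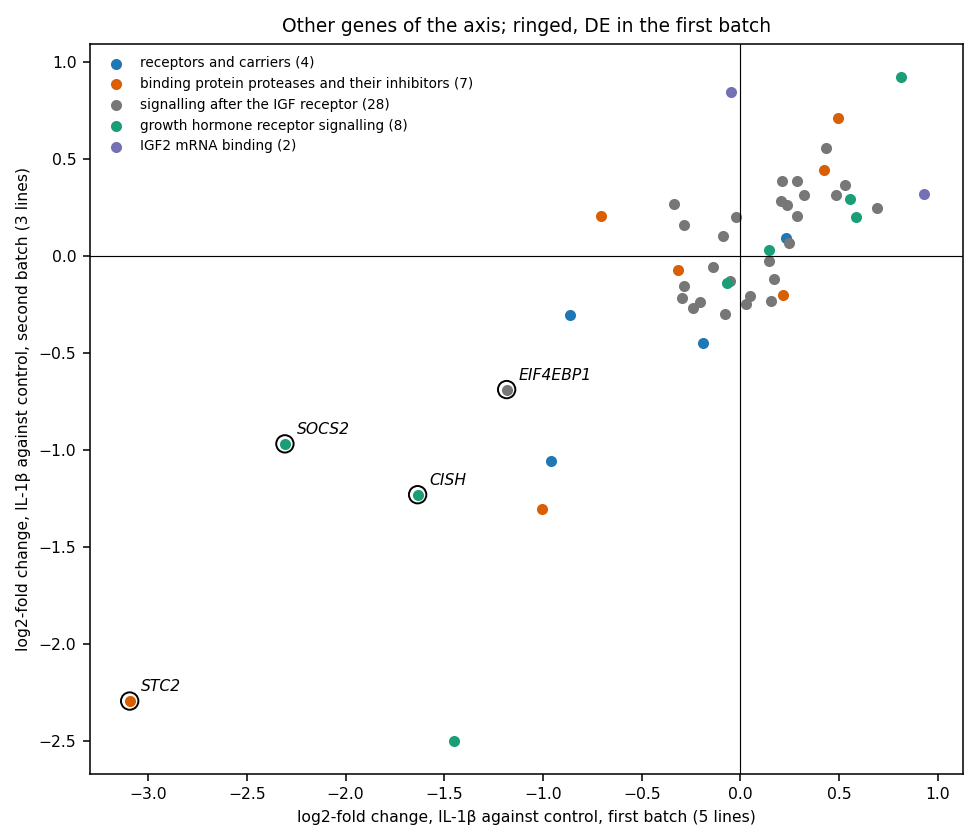
Log2-fold change with IL-1β against control in the first batch (horizontal axis) and in the second batch (vertical axis) for the 49 pathway genes tested, coloured by role, with the genes that were DE in the first batch ringed and named. STC2, SOCS2, CISH and EIF4EBP1 lie below 0 on both axes, although EIF4EBP1 was lower in 1 of 3 second-batch lines only, and most genes that signal after the IGF receptor lie near 0 on both.

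For the 3 members with the largest first-batch differences among the DE members, the genes with the most similar pattern were found over 19 libraries and 14478 genes, after centring each batch on its mean. IGFBP2 was most like TNS3 (Pearson r = 0.954), VWA1 (0.953) and PPP1R13L (0.952). GHR was most like MEF2A (0.924), C31H6orf120 (0.910) and SKI (0.888). IGFBP5 was most like ANGPT1 (0.969), TBX3 (0.968) and FAM20A (0.967). The libraries share lines, treatment and normalisation, the genes were picked as the highest of all, and these values are descriptions only.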

How the data were processed

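RNA-seq libraries (TruSeq stranded mRNA) of 8 tenocyte lines were quantified by the authors with Salmon against the EquCab3.0 transcriptome and summarised per gene with tximport. The deposited tables, 1 per batch, hold the resulting signal as normalised read counts, divided by size factors in DESeq2 1.36 under R 4.2.1. The low values did not step in whole reads (50.7% to 70.5% came out whole within 0.05), so no count model was used. Depth limits low genes, and the tables give no reads per gene, so totals are of normalised counts.

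Genes were kept where 5 (first batch) or 3 (second batch) libraries or more had 10 normalised counts or more, and were fitted with limma 3.58.1 (R 4.3.3, trended variance) on log2(normalised count + 1), each batch alone, with Benjamini-Hochberg adjustment over all genes. The main fit has no block, since the study's methods name no covariate. The line was a block in the alternative, because libraries of a line share a donor. Deviations from condition means correlated at 0.35 to 0.58 within lines and -0.36 to 0.29 between lines in the first batch, and at 0.54 to 0.79 and -0.62 to 0.25 in the second. Without the block, the p-values set a difference against the spread between lines and treat libraries of a line as independent. With the block, they set it against the spread of the differences within lines. The script was tested on simulated data.

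Members, the pathway list and the marker lists were chosen with earlier results of these data known. Named are all members, every pathway gene DE in a comparison (others were named after their values were seen), the 3 most similar genes for the 3 DE members with the largest change, and IL6 as a label check. CXCL8, also a label check, was at most 2859 normalised counts in control and at least 22788 with IL-1β, and with IL1Ra added it was 27.8, 20896 and 25689 in lines 6, 7 and 8. Alternatives were other pseudocounts (0.5 and 5), filters, scalings, the variance trend, the threshold, the block, and each line left out. RefSeq names of the TB-T2T assembly matched 10 of 10 members. Coordinates were used only to find the neighbouring genes, and no sequences were used.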

Additional observations from a re-analysis of the deposited data

Results flagged for a closer look

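The 10 members in the control and IL-1β libraries of the first batch gave 20 groups of 5 values, each tested for a library far from the others. In 2 groups there was one, where chance gives about 1 in 20 if values are normally distributed. The gaps were taken on normalised counts and not on log2 values, and skewed counts can set the highest library apart. These flags are therefore descriptions only. Groups of 3 were not tested. Both concerned line 3 with IL-1β. Its IGF1 count of 3602 stood above the other 4 lines at 11.6 to 858, a gap of 0.764 of the group's range against a critical value of 0.71. Its IGFBP7 count of 10522.5 stood above 1481 to 3776 in the other lines, a gap of 0.746 of the range.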

How the results depend on the processing

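Most alternatives moved no call of a member. With the line as a replicate block, 1 member (GHR) was DE with IL-1β in the second batch in place of 0. The SE of GHR changed little there (0.28 without the block and 0.26 with it). In the same comparison the genes with an adjusted p under 0.05 went from 57 to 1019 of 16705. What led to the GHR call was not tested. IGFBP3 joined the DE members of the first batch with the block, and no other call of a member changed. Dropping the fold threshold gave 6 DE members in the first batch. Leaving out 1 line gave 2 to 4 DE members in the first batch without the block (2, GHR and IGFBP2, without line 5), 4 to 5 with it, and 0 in each second-batch comparison without the block. With the block and without line 6, which leaves 2 lines, the DE members were 2 (GHR and IGF1R) with IL-1β, 1 (IGF2) with IL1Ra against control and 1 (IGF2) with IL1Ra against IL-1β, and the range over lines left out was 0 to 2, 0 to 1 and 0 to 1.

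Directions reversed only for members that were not DE. IGF1 in the first batch was 0.041 with a pseudocount of 5. Scaling to library totals gave -0.011 for IGFBP6 with IL1Ra against control and -0.15 for the batch difference of IGFBP3, and it moved the median of all genes from -0.0084 to -0.19 with IL-1β in the second batch and from 0.0088 to 0.11 with IL1Ra against IL-1β. Over lines left out, the log2-fold change in the first batch ran from -0.65 to 0.99 for IGF1 (0.029 without line 5) and from -0.17 to 0.93 for IGF2. With IL-1β in the second batch it ran from -1.11 to 0.92 for IGF2. With IL1Ra against control it ran from -0.21 to 0.79 for IGF1, from -0.40 to 0.032 for GHR, from -0.82 to 0.91 for IGFBP2, from -0.14 to 1.239 for IGFBP4 and from -0.36 to 0.48 for IGFBP6, and with IL1Ra against IL-1β from -1.03 to 0.13 for IGFBP5. The cause of the reversals was not tested.

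The limits are 3 lines in the second batch, no library with IL1Ra alone, 1 time point, and normalised values without lengths or read counts. Without the line as a block, members with wide spreads between lines (IGF1, IGF2, IGFBP3) allow changes in either direction. With the block, the 95% interval of IGFBP3 was above 0 for IL-1β in lines 1 to 5 (0.38 to 2.30). In lines 6 to 8 it included 0 for IL-1β (-0.044 to 2.75). For IL1Ra against IL-1β it was below 0 (-4.41 to -1.62), although IGFBP3 was not DE there (limma adjusted p = 0.204). For IL1Ra against control the IGFBP3 interval was also below 0 (-3.05 to -0.26, limma adjusted p = 0.296). The intervals of IGF2 with the block included 0 for IL-1β in each batch. They were above 0 for IL1Ra against control (0.28 to 3.89) and against IL-1β (0.046 to 3.65). IGF2 was not DE in either (limma adjusted p = 0.307 and 0.582). The intervals of IGF1 with the block included 0 in every comparison. The members were chosen with results known, and all comparisons with IL1Ra share their control or IL-1β libraries.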

Other observations

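Some pathway genes had groups that did not overlap in the first batch without passing the fold threshold. JAK2, the kinase of GHR, was higher with IL-1β in 5 of 5 lines (log2-fold change 0.58, SE 0.13, limma adjusted p = 0.00689). SOCS3, a cytokine-induced suppressor, was likewise higher (0.55, SE 0.14, limma adjusted p = 0.0168), in contrast to the lower SOCS2 and CISH of the same family. RPTOR, the mTOR complex subunit, was higher (0.53, SE 0.11, limma adjusted p = 0.00525), and ADAM12, a metalloprotease that can cut binding proteins, was lower (-0.71, SE 0.24, limma adjusted p = 0.0477). These groups are 7 of 49 pathway genes with the DE genes STC2, EIF4EBP1 and SOCS2, beside 19.5% of all genes. In the second batch JAK2 and SOCS3 were each higher in 2 of 3 lines and were not DE (log2-fold changes 0.20 and 0.30). RPTOR was higher in 3 of 3 lines without overlap (0.37), and ADAM12 was higher in 2 of 3 lines (0.21), neither DE.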
